A study of Homo sapiens with 9 samples.

Results

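Interleukin 1 family cytokines and receptors were followed in HaCaT, a human keratinocyte line that became immortal spontaneously. The members were the rows of the deposited count table whose symbol is IL1A, IL1B, IL36G, IL33, IL18, IL1RN, IL36RN, IL1R1, IL1RAP or IL1R2. All 10 symbols had a row among 21170 features, and all 10 passed the filter on low counts that left 13713 genes for testing. The 9 libraries of poly(A) RNA formed 3 groups of 3. FTO cells overexpressed wild-type FTO, an RNA demethylase, mut-FTO cells overexpressed a mutant FTO with disrupted demethylase activity, and Vector cells carried an empty vector. By its title, the series is about FTO and fibronectin in a dermatitis that resembles psoriasis. All groups are the same cell line, and the labels state no treatment, time, promoter or method of selection, nor whether a group was a clone or a pool. Whether replicate libraries represent different cultures is not stated either, and the p-values reflect only the variation among the libraries at hand, which may be technical.

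The interleukin 1 family is a set of cytokines that epithelial cells use to signal injury. Interleukin 1 alpha and interleukin 1 beta bind the receptor IL1R1, which recruits the accessory protein IL1RAP and the adaptor MYD88 to activate NF-kB. The same accessory protein serves the receptors of interleukin 33 and interleukin 36. Antagonists such as IL1RN and IL36RN occupy a receptor without recruiting it, and the decoy IL1R2 binds ligand without signalling. In the epidermis, keratinocytes store interleukin 1 alpha, and loss of IL36RN in humans causes a pustular form of psoriasis.

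Libraries held 32222203 to 37846027 counts. Levels are CPM values after TMM scaling of the library sizes, with mean ± SD of 3 libraries. Adjusted p-values are from edgeR's quasi-likelihood test with Benjamini-Hochberg adjustment over all 13713 genes, and a gene was called below 0.05. FTO itself stood at 69.6, 77.0 and 62.6 CPM in FTO libraries and at 49.7, 82.7 and 64.2 CPM in mut-FTO libraries, against 18.4, 17.0 and 25.8 CPM in Vector libraries. This level tells Vector from the other groups, while FTO and mut-FTO columns were told apart by their letter codes alone. Vector replicate 3 stood apart, with 14.97% of its counts in mitochondrially encoded genes against 3.805% to 7.45% in the other 8 libraries. Within that range the groups differed too. The mut-FTO libraries had 5.52%, 7.45% and 5.77%, all above FTO at 3.805% to 4.32% and Vector replicates 1 and 2 at 4.16% and 4.20%. The part of this difference in the results was not tested. In mut-FTO replicate 2, 3.17% of counts were in assembled loci without a gene symbol, and in Vector replicate 3 2.50%, against 0.689% to 0.874% in the other 7 libraries. Of 8 keratinocyte markers all had counts in every group, with summed levels of 15679 to 16016 CPM in FTO, 18534 to 23778 in mut-FTO and 12307 to 16525 in Vector. Of these, KRT5 (log2 0.69; edgeR adjusted p = 0.0468) and KRT14 (log2 0.91; edgeR adjusted p = 0.00876) rose in mut-FTO against Vector, and the other 6 were not called. Leukocytes, which also make these cytokines, had 6 of 11 markers with any count, summing to 16.0 to 17.7 CPM in FTO, 25.1 to 30.9 in mut-FTO and 11.6 to 16.1 in Vector. MS4A1, NKG7 and the Langerhans cell markers CD207 and CD1A were among those with no counts in any group, and the leukocyte marker PTPRC had none in FTO and Vector. CD14 carried nearly all of the leukocyte sum, with 15.3 to 17.4 CPM in FTO, 24.3 to 30.3 in mut-FTO and 10.6 to 15.5 in Vector, and every other leukocyte marker was below 1 CPM in each library. It rose in mut-FTO against Vector (log2 1.01; edgeR adjusted p = 0.00600), and the part of these markers in the results was not tested. Fibroblast markers summed to 5.26 to 6.87 CPM in FTO, 6.59 to 9.04 in mut-FTO and 9.14 to 9.90 in Vector, and melanocyte and endothelial markers to at most 1.73 CPM in any library. Fewer cells expressing a gene and less RNA per cell cannot be told apart in bulk libraries.

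Per kilobase of the longest coding transcript in GENCODE 29, IL1B was the most abundant member in Vector, at 251 ± 20.5 CPM per kilobase, and IL1A followed at 118 ± 54.6. IL1RN and IL18 came next in Vector at 63.4 ± 9.92 and 57.0 ± 16.8 CPM per kilobase, with overlapping libraries. IL36G at 32.02 and IL1RAP at 25.3 CPM per kilobase overlapped as well, as did IL1R2 at 8.69 and IL1R1 at 6.99, and IL36RN at 2.16 and IL33 at 0.977. In mut-FTO the order differed. IL18 stood highest there at 65.6 CPM per kilobase and IL1RN next at 37.0, ahead of IL1B at 28.7, and IL1A at 14.2 lay below IL1R2 at 15.6. In FTO the order began with IL1B at 133, IL1A at 64.2 and IL18 at 60.7 CPM per kilobase, with overlapping libraries of IL1A and IL18. The order depends on the transcript length used: with the shortest coding transcript, IL1RN in Vector had 144 CPM per kilobase and passed IL1A at 118. In FTO, IL18 at 87.6, IL1RN at 84.0 and IL1RAP at 81.2 then passed IL1A at 64.2. In mut-FTO, IL1RAP at 62.7 and IL36G at 31.7 then passed IL1B at 28.7.

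**Figure D1:**
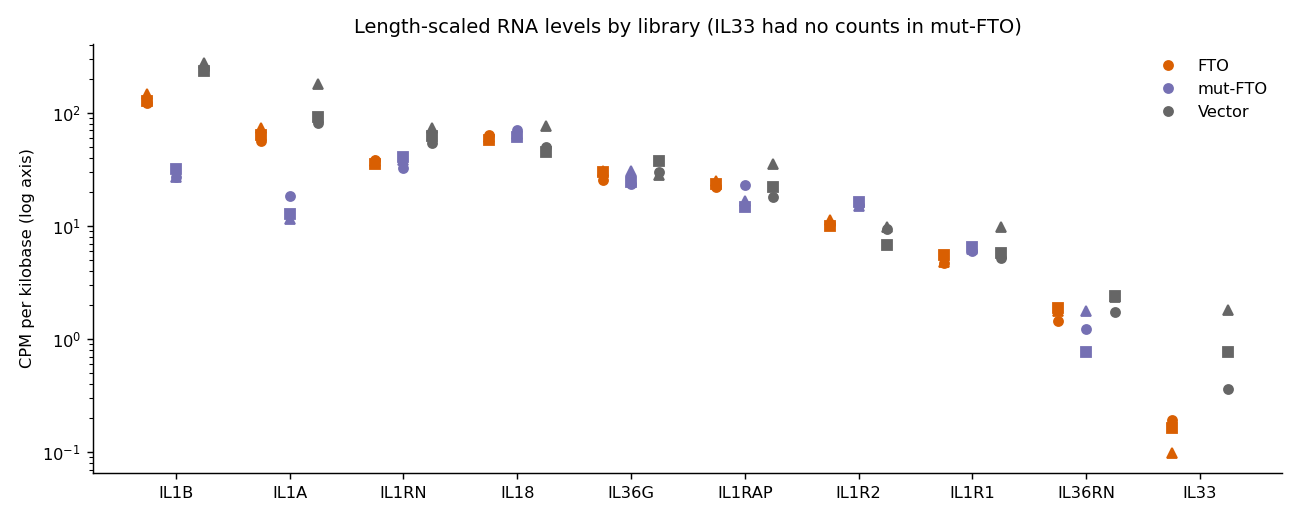
CPM per kilobase of the longest coding transcript (log axis) for each member in FTO, mut-FTO and Vector, with a circle, square and triangle for replicates 1, 2 and 3. IL1B and IL1A sit lowest in mut-FTO, while IL18 and IL36G stay within a narrow band in all groups.

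Interleukin 1 alpha and interleukin 1 beta RNA were over 8-fold lower in mut-FTO than in Vector, and IL1B was lower in FTO too. IL1B encodes a precursor that caspase-1 cleaves to the secreted cytokine. Its levels were 198, 209 and 242 CPM in FTO, 44.4, 52.2 and 44.1 CPM in mut-FTO and 400, 381 and 446 CPM in Vector. The 3 groups did not overlap, with FTO between the others. IL1B fell 1.89-fold in FTO against Vector (log2 −0.92, SE 0.15; edgeR adjusted p = 0.0150). In mut-FTO against Vector it fell 8.73-fold (log2 −3.13, SE 0.16; edgeR adjusted p = 4.79e-07) and ranked 4 of 13713 genes by p. FTO exceeded mut-FTO 4.61-fold (log2 2.21, SE 0.16; edgeR adjusted p = 7.81e-05), the lowest p of all genes tested. The calls involving mut-FTO held with any of the 9 libraries left out, whereas the call in FTO against Vector was lost without any FTO library (adjusted p 0.0583 to 0.147).

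IL1A, whose product is active without cleavage, stood at 120, 135 and 155 CPM in FTO, 38.8, 27.2 and 24.4 CPM in mut-FTO and 174, 194 and 384 CPM in Vector. Again no groups overlapped, and Vector replicate 3 was far above the other Vector libraries. In mut-FTO against Vector IL1A fell 8.31-fold (log2 −3.06, SE 0.30; edgeR adjusted p = 7.05e-05), and without Vector replicate 3 the log2 change was −2.61. FTO exceeded mut-FTO 4.53-fold (log2 2.18, SE 0.29; edgeR adjusted p = 0.00229). Against Vector, FTO cells had a log2 fold change of −0.88 (SE 0.28) that did not pass (edgeR adjusted p = 0.238), and −0.45 without Vector replicate 3. IL1A and IL1B are neighbours on chromosome 2. The 250 bases before their RefSeq starts (GRCh38.p14) are shown because these neighbours fell together in mut-FTO. IL1A lies at chr2:112784494-112784743, minus strand and IL1B at chr2:112836780-112837029, minus strand. Capitals mark matches on either strand to the AP-1 motif TGANTCA, the NF-kB motif or the TATA box. The letters searched for the TATA box were TATAAA. For NF-kB they were GGGA, then any 3 bases, then TCC.
IL1A: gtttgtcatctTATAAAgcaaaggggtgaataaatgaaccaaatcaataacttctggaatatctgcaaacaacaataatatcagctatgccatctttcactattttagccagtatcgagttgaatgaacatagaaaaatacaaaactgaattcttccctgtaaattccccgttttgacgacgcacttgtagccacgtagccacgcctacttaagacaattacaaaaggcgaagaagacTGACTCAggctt
IL1B: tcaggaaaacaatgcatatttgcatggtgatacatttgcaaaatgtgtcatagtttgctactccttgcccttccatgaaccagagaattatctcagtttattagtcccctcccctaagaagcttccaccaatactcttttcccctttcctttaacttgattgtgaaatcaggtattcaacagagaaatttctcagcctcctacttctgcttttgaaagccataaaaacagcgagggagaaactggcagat
The IL1A window holds TGACTCA from 12 to 6 bases before the start and TATAAA from 239 to 234 bases before it. The IL1B window holds none of these letters. Among 35116 RefSeq promoters of the same length, 6.57% hold the AP-1 letters, 4.31% the NF-kB letters and 10.7% the TATA letters, so that a match is a description of the sequence only.

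IL33, a nuclear alarmin released by damaged epithelium, had the lowest mean CPM of the members, and its RNA was not counted in mut-FTO. It had 0.505, 0.429 and 0.257 CPM in FTO, 0 in all 3 mut-FTO libraries and 0.964, 2.04 and 4.74 CPM in Vector. Total counts were 44 in FTO, 0 in mut-FTO and 274 in Vector, of which 168 came from Vector replicate 3. With the mut-FTO libraries set at 3 counts together, IL33 was at least 91.9-fold lower in mut-FTO than in Vector (edgeR adjusted p = 0.000741). The call held with any library left out, but the bound was 53.9-fold without Vector replicate 3 and 59.6-fold, 63.3-fold and 60.9-fold without mut-FTO replicates 1, 2 and 3. IL33 in FTO was at least 13.8-fold higher than in mut-FTO (edgeR adjusted p = 0.0289), but this call was lost without any FTO or mut-FTO library (adjusted p 0.0685 to 0.1175) and with limma-voom (0.160). Its bound was 8.97-fold to 9.52-fold without a mut-FTO library. Between FTO and Vector it had a log2 fold change of −2.69 (SE 0.63) that did not pass (edgeR adjusted p = 0.107), and −1.93 without Vector replicate 3.

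The agonists IL36G and IL18 were not called in any comparison. IL36G, the interleukin 36 cytokine of keratinocytes that is abundant in psoriatic skin, stood at 30.6, 36.0 and 36.6 CPM in FTO, 28.1, 29.3 and 36.6 CPM in mut-FTO and 35.8, 45.2 and 33.8 CPM in Vector. All groups overlapped. Against Vector, IL36G had a log2 fold change of −0.15 in FTO (95% interval −0.54 to 0.24) and −0.29 in mut-FTO (−0.68 to 0.10), with edgeR adjusted p = 0.765 and 0.395. IL18, a caspase-1 substrate that keratinocytes store as a precursor, stood at 72.5, 66.5 and 70.0 CPM in FTO, 80.3, 70.5 and 75.1 CPM in mut-FTO and 56.9, 51.8 and 87.5 CPM in Vector. Vector replicate 3 was the highest of the 9 libraries and the other Vector libraries were the lowest. The log2 fold change of IL18 was 0.091 in FTO (−0.33 to 0.51) and 0.20 in mut-FTO (−0.21 to 0.62), with edgeR adjusted p = 0.889 and 0.597. Without Vector replicate 3 IL18 was higher in mut-FTO than in Vector (log2 0.46; edgeR adjusted p = 0.0166).

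**Figure D2:**
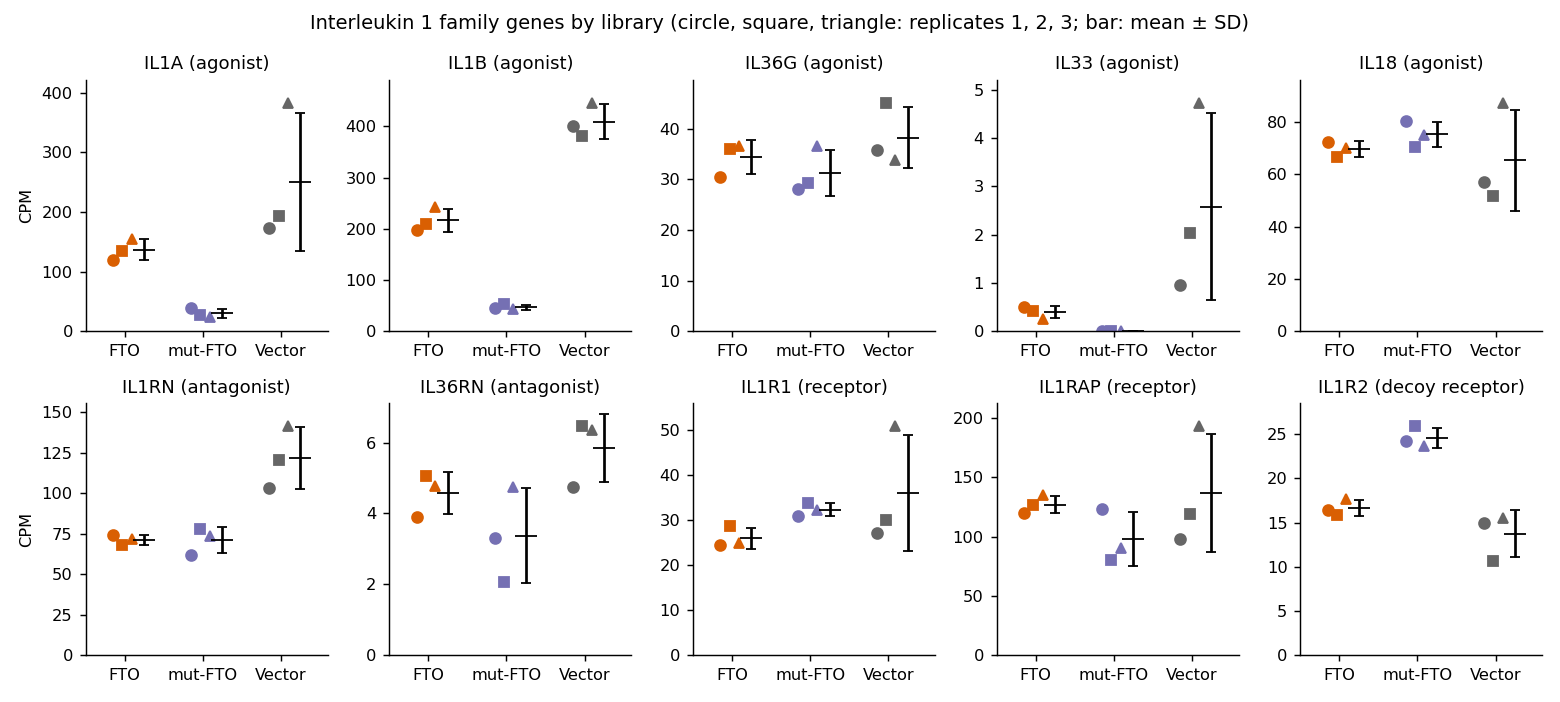
CPM of each member in every library (circle, square and triangle for replicates 1, 2 and 3) with mean ± SD of 3 libraries, in FTO, mut-FTO and Vector. IL1B separates all groups, and Vector replicate 3 is the highest library for IL1A, IL1B, IL33, IL18, IL1RN, IL1R1 and IL1RAP.

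The antagonist IL1RN lay below Vector in both FTO groups by nearly the same amount, but was called only in mut-FTO. It encodes the interleukin 1 receptor antagonist, which competes with both interleukin 1 cytokines for IL1R1. IL1RN stood at 74.1, 67.9 and 71.6 CPM in FTO, 62.1, 77.7 and 73.6 CPM in mut-FTO and 103, 121 and 141 CPM in Vector. Every FTO and mut-FTO library lay below every Vector library, and FTO and mut-FTO libraries overlapped. IL1RN fell 1.71-fold in mut-FTO against Vector (log2 −0.78, SE 0.16; edgeR adjusted p = 0.0105), with any library left out (adjusted p up to 0.0479). FTO against Vector had the same log2 fold change of −0.78 (SE 0.16) just outside the threshold (edgeR adjusted p = 0.0528). It passed in 2 of 9 fits with a library left out, those without Vector replicate 1 or 3 (0.0349 and 0.00543), with adjusted p up to 0.262. It also passed with DESeq2 (0.000669), RLE size factors (0.0462), library size alone (0.0354) and no filter (0.0470). The same held without assembled loci and mitochondrially encoded genes (0.0493), and without both Vector replicate 3 and mut-FTO replicate 2 (0.000832). It did not pass with limma-voom, with a filter at a mean of 10 counts, with only the 6 libraries compared or with the replicate number as a block. Between FTO and mut-FTO the log2 difference was 0.0022 (95% interval −0.35 to 0.35; edgeR adjusted p = 0.997). IL1RN lies at the far end of the same cluster on chromosome 2. The 250 bases before its first listed RefSeq start (chr2:113117721-113117970, plus strand) are shown for comparison with its agonists.
IL1RN: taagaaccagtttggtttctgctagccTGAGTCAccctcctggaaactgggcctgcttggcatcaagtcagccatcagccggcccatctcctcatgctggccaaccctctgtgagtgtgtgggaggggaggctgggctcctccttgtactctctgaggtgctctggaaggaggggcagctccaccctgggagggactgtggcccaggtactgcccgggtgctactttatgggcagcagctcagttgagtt
This window holds TGAGTCA, a match to the AP-1 letters, from 223 to 217 bases before the start.

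IL36RN, the antagonist of interleukin 36, was scarce. It stood at 3.90, 5.04 and 4.78 CPM in FTO, 3.30, 2.07 and 4.74 CPM in mut-FTO and 4.73, 6.46 and 6.34 CPM in Vector. Neighbouring libraries of all groups overlapped. Its log2 fold change was −0.35 in FTO against Vector (95% interval −0.99 to 0.28; edgeR adjusted p = 0.667) and −0.79 in mut-FTO against Vector (−1.43 to −0.15; edgeR adjusted p = 0.136), so neither was called. The genes between IL1B and IL1RN in the cluster include IL36G and IL36RN, which were not called in any comparison.

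Among the receptors the decoy IL1R2 was higher in mut-FTO than in Vector, and the signalling chains IL1R1 and IL1RAP were not called in any comparison. IL1R2 stood at 16.4, 15.9 and 17.6 CPM in FTO, 24.2, 25.9 and 23.6 CPM in mut-FTO and 14.9, 10.7 and 15.6 CPM in Vector. No groups overlapped, with mut-FTO highest. IL1R2 rose 1.79-fold in mut-FTO against Vector (log2 0.84, SE 0.18; edgeR adjusted p = 0.0137), a call lost without mut-FTO replicate 2 (0.0519), without Vector replicate 2 (0.0708) and with only the 6 libraries compared (0.0746). In FTO against Vector its log2 fold change was 0.28 (SE 0.18; edgeR adjusted p = 0.579). Between FTO and mut-FTO it was −0.56 (SE 0.18; edgeR adjusted p = 0.157), which passed without Vector replicate 3 (0.0183), with only the 6 libraries compared (0.0148) and without Vector replicate 3 and mut-FTO replicate 2 together (0.0450). Of the 9 fits with 1 library left out, only that without Vector replicate 3 passed (adjusted p up to 0.453). It did not pass with DESeq2 or limma-voom.

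IL1R1, the signalling receptor, stood at 24.4, 28.6 and 24.8 CPM in FTO, 30.9, 33.7 and 32.3 CPM in mut-FTO and 27.1, 29.97 and 50.8 CPM in Vector. The first 2 Vector libraries lay among those of the other groups, and Vector replicate 3 was far above them, while every FTO library lay below every mut-FTO library. Its log2 fold change was −0.47 in FTO against Vector (95% interval −0.96 to 0.014; edgeR adjusted p = 0.429) and −0.16 in mut-FTO against Vector (−0.64 to 0.33; edgeR adjusted p = 0.748), which became 0.17 without Vector replicate 3. IL1RAP, the shared accessory chain, stood at 120, 126 and 135 CPM in FTO, 124, 79.9 and 90.8 CPM in mut-FTO and 97.8, 119 and 193 CPM in Vector. Vector replicate 3 was again the highest library, and its groups overlapped in all comparisons. The log2 fold change of IL1RAP was −0.11 in FTO (95% interval −0.63 to 0.41) and −0.48 in mut-FTO (−1.001 to 0.041), with edgeR adjusted p = 0.897 and 0.276. The part of the mitochondrial share of Vector replicate 3 in these values was not tested.

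**Figure D3:**
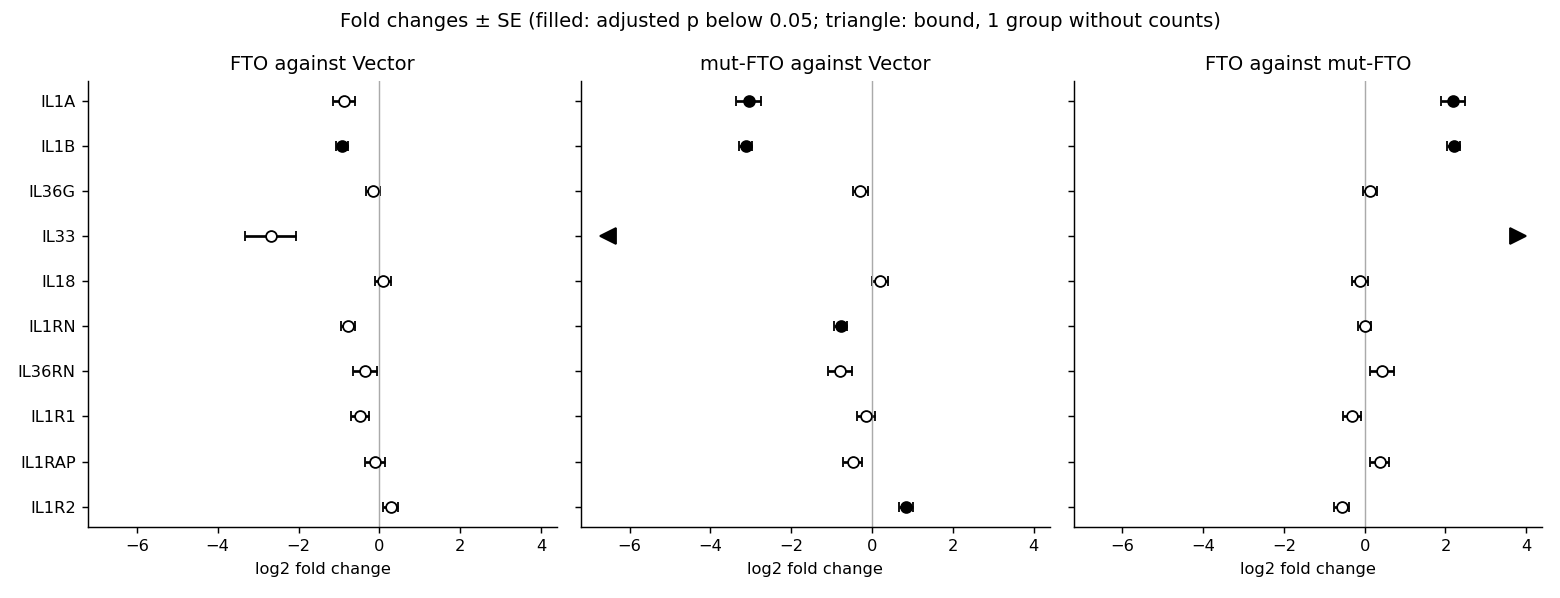
Log2 fold changes of the members with SE in the 3 comparisons (filled circles have an edgeR adjusted p below 0.05, and triangles are bounds where mut-FTO had no IL33 counts). IL1A and IL1B lie near −3 in mut-FTO against Vector and near 2 in FTO against mut-FTO. IL36G, IL18 and both signalling receptor chains lie between −0.48 and 0.37 and are not called.

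Counted over the members, 1 of 10 was called in FTO against Vector (IL1B, lower), where 0.744% of all genes tested were called, 0.306% higher and 0.438% lower. In mut-FTO against Vector 4 of 10 were lower (IL1A, IL1B, IL33 and IL1RN) and IL1R2 was higher, where 7.78% of all genes were called, 3.27% higher and 4.51% lower. Between FTO and mut-FTO 3 of 10 were higher in FTO (IL1A, IL1B and IL33), where 2.33% of all genes were called, 1.2% higher and 1.13% lower. Median log2 fold changes of the members were −0.41, −0.63 and 0.25 in these comparisons, and medians of all genes tested were −0.0020, −0.0012 and 0.0046. Libraries did not overlap for 5 of 10 members in FTO against Vector, for 5 in mut-FTO against Vector and for 5 between FTO and mut-FTO. The shares of all genes tested were 21% (10.1% higher and 10.9% lower), 24% (12.2% and 11.8%) and 29% (14.8% and 14.2%). The members were chosen with earlier results of these data known, so these shares are a description and not a test. Comparisons against Vector share its libraries and are not independent of each other. Without Vector replicate 3 the members called were 2, 6 and 4, while the share of all genes called became 3.41%, 15% and 10.2%, so that more calls were made throughout.

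The counts of inhibitor and partner were set against each other within each library, which needs no scaling between libraries. IL1RN had 37.5, 32.5 and 29.6 counts per 100 IL1B counts in FTO, 140, 149 and 167 in mut-FTO and 25.9, 31.7 and 31.7 in Vector. In mut-FTO the antagonist's counts exceeded those of IL1B in every library, and in FTO and Vector they were below in every library. The mean log2 ratio was −1.60 ± 0.17 in FTO, 0.60 ± 0.13 in mut-FTO and −1.76 ± 0.17 in Vector. It differed by 2.35 between mut-FTO and Vector and by 0.16 between FTO and Vector, the first far above and the second below the spread between libraries. No p is given for the ratios, because their genes were chosen with earlier results known, as were all members and lists. IL36RN had 12.8, 14.0 and 13.0 counts per 100 IL36G counts in FTO, 11.8, 7.07 and 13.0 in mut-FTO and 13.2, 14.3 and 18.75 in Vector. Every mut-FTO library lay below every Vector library, by a narrow margin, and the FTO libraries overlapped with both. The decoy IL1R2 had 67.3, 55.5 and 71.2 counts per 100 IL1R1 counts in FTO, 78.4, 76.9 and 73.2 in mut-FTO and 55.2, 35.5 and 30.6 in Vector. Vector was lowest in each case, though FTO replicate 2 and Vector replicate 1 nearly met. The mean log2 ratio of decoy to receptor was 0.71 higher in FTO and 0.96 higher in mut-FTO than in Vector, and 0.54 and 0.78 higher without Vector replicate 3.

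**Figure D4:**
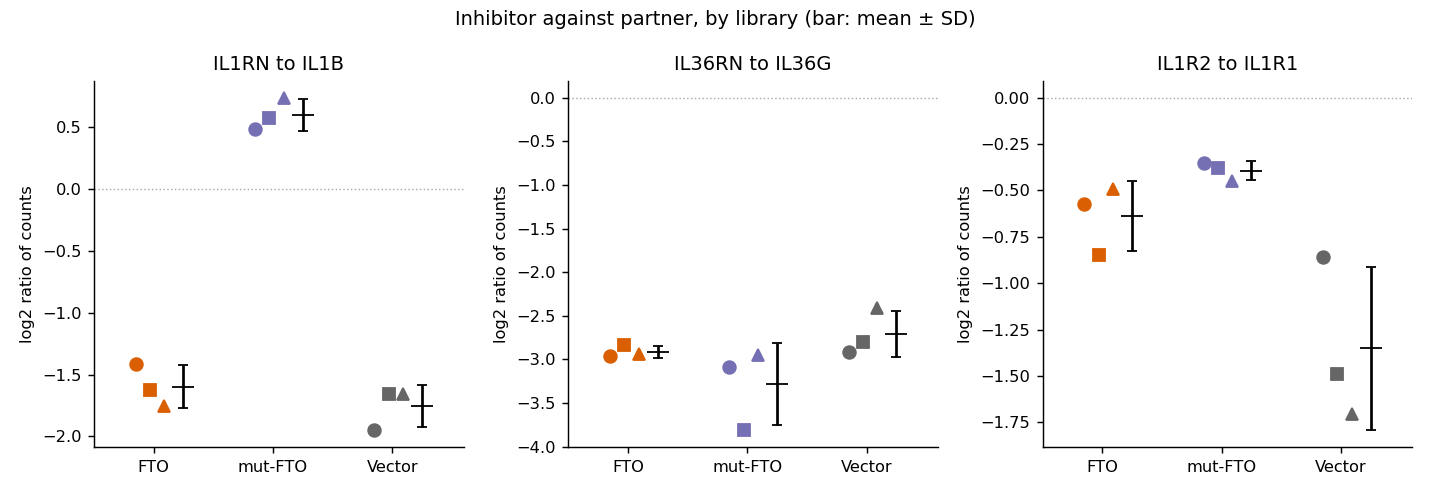
Log2 ratio of counts of an inhibitor to its partner in every library (circle, square and triangle for replicates 1, 2 and 3) with mean ± SD, in FTO, mut-FTO and Vector. IL1RN to IL1B lies above 0 in all 3 mut-FTO libraries and below −1.4 in all FTO and Vector libraries, and IL1R2 to IL1R1 is lowest in Vector.

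The wider pathway was described with 4 lists of 74 genes, of which 66 were tested. In FTO against Vector 1 of 66 rose and 2 fell (median log2 fold change −0.053), where 0.306% of all genes rose and 0.438% fell. In mut-FTO against Vector 5 rose and 12 fell (median −0.12), where 3.27% of all genes rose and 4.51% fell. Between FTO and mut-FTO 3 were higher in FTO and 1 was lower (median 0.012), where 1.2% of all genes were higher and 1.13% lower. Without Vector replicate 3, 10, 26 and 8 of 67 tested genes were called, and the share of all genes called was larger too, at 3.41%, 15% and 10.2%.

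Of the 10 other family genes 6 were tested. IL1RL1, the interleukin 33 receptor known as ST2, was the gene called, at 1.89, 1.12 and 0.607 CPM in mut-FTO and 3.30, 3.77 and 4.34 CPM in Vector. It fell 3.14-fold in mut-FTO against Vector (edgeR adjusted p = 0.0213), a call lost without mut-FTO replicate 2 (0.0921) or 3 (0.0784) and without Vector replicate 2 (0.0553). FTO libraries, at 2.02, 1.66 and 2.92 CPM, lay below Vector without passing (log2 −0.79; edgeR adjusted p = 0.431). Both IL33 and its receptor were called lower in mut-FTO.

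Among 12 tested genes of processing and release, 1 rose and 3 fell in mut-FTO against Vector, where 3.27% of all genes rose and 4.51% fell. In FTO against Vector 1 fell, where 0.438% of all genes fell. NLRP1, the inflammasome sensor of human keratinocytes, stood at 6.93, 6.60 and 6.15 CPM in FTO, 4.22, 4.48 and 5.69 CPM in mut-FTO and 12.4, 13.8 and 12.3 CPM in Vector. Both FTO groups lay below Vector in every library. NLRP1 fell 1.96-fold in FTO (edgeR adjusted p = 0.0443) and 2.68-fold in mut-FTO (edgeR adjusted p = 0.000803), and the call in FTO held in 1 of 9 fits with a library left out, that without Vector replicate 3. CTSS, the protease cathepsin S, had 20.3 ± 0.653 CPM in FTO, 9.09 ± 3.16 in mut-FTO and 37.0 ± 7.14 in Vector. It fell 4.07-fold in mut-FTO against Vector (edgeR adjusted p = 0.000427) and in FTO was 2.23-fold higher than in mut-FTO (edgeR adjusted p = 0.0348), the second call being lost without any FTO or mut-FTO library (0.0574 to 0.150). GSDME, a pore-forming gasdermin listed under its older symbol, fell 1.91-fold in mut-FTO against Vector (edgeR adjusted p = 0.00281). CASP1, which encodes the protease that matures interleukin 1 beta and interleukin 18, moved the other way, with 30.3 ± 4.67 CPM in FTO, 42.1 ± 7.11 in mut-FTO and 24.8 ± 4.91 in Vector. It rose 1.70-fold in mut-FTO against Vector (edgeR adjusted p = 0.0368), a call that held with a library left out only without Vector replicate 3 (adjusted p 0.00141 to 0.146 over the 9 fits).

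Of 24 tested signalling genes 1 rose and 2 fell in mut-FTO against Vector, where 7.78% of all genes were called. IRAK2 had the lowest p in FTO against Vector (log2 −0.61; edgeR adjusted p = 0.187). NFKBIA, the inhibitor and rapid target of NF-kB, had 466, 476 and 427 CPM in FTO, 645, 840 and 761 CPM in mut-FTO and 425, 421 and 405 CPM in Vector. All mut-FTO libraries were above all others. NFKBIA rose 1.80-fold in mut-FTO against Vector (edgeR adjusted p = 0.00434) and was 1.64-fold lower in FTO than in mut-FTO (log2 −0.71; edgeR adjusted p = 0.0290), the second call being lost without 6 of the 9 libraries, namely all FTO libraries, mut-FTO replicates 2 and 3 and Vector replicate 2 (0.0545 to 0.150). TAB3, which links TRAF6 to the kinase TAK1, fell 2.57-fold in mut-FTO against Vector (edgeR adjusted p = 0.0100), with 46.8 ± 23.1 CPM in Vector. Without Vector replicate 3 its log2 change was −0.89 (adjusted p = 0.000882), and the call was lost without mut-FTO replicate 2 or 3 (0.0624 and 0.0582). IRAK2, a kinase below the receptor, fell 1.58-fold in mut-FTO against Vector (edgeR adjusted p = 0.0385), a call that held only without Vector replicate 1 or 3 among the 9 fits.

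**Figure D5:**
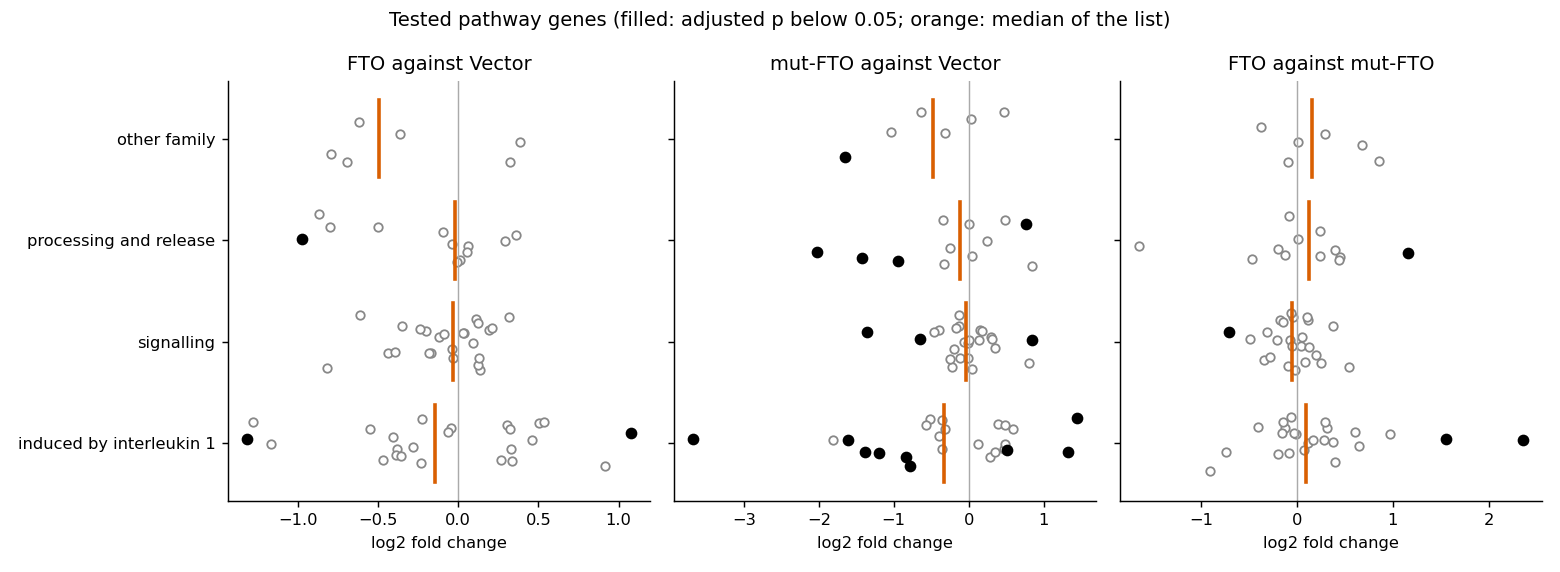
Log2 fold changes of the 66 tested pathway genes by list in the 3 comparisons (filled points have an edgeR adjusted p below 0.05, and the orange line is the median of the list). Genes induced by interleukin 1 spread in both directions in mut-FTO against Vector, with 3 called higher and 6 called lower, and most signalling genes lie near 0.

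Genes that interleukin 1 induces in keratinocytes did not move 1 way. Of 24 tested, 3 rose and 6 fell in mut-FTO against Vector, with a median log2 fold change of −0.34, where 3.27% of all genes rose and 4.51% fell. In FTO against Vector 1 rose and 1 fell, with a median of −0.14, where 0.306% of all genes rose and 0.438% fell. IL24, a cytokine of the interleukin 10 family, stood at 17.0, 18.5 and 21.6 CPM in FTO, 3.9999, 2.75 and 4.33 CPM in mut-FTO and 50.3, 48.7 and 43.1 CPM in Vector. It separated the groups in the same order as IL1B and fell 12.8-fold in mut-FTO against Vector (edgeR adjusted p = 1.44e-06). In FTO against Vector IL24 fell by 1.31 on the log2 scale (edgeR adjusted p = 0.00813), a call lost without FTO replicate 1 or 2 (0.0884 and 0.0729), and FTO lay above mut-FTO by 2.36 (edgeR adjusted p = 0.000302). PTGS2, the inducible cyclooxygenase, had 258 ± 15.5 CPM in FTO, 88.2 ± 14.0 in mut-FTO and 270 ± 67.1 in Vector. It fell 3.06-fold in mut-FTO against Vector (edgeR adjusted p = 0.000338) and in FTO was 2.93-fold higher than in mut-FTO (edgeR adjusted p = 0.00176). The neutrophil chemokine gene CXCL6 rose 2.50-fold in mut-FTO against Vector (edgeR adjusted p = 0.00996) and its relative CXCL5 fell 2.62-fold (edgeR adjusted p = 0.0144), calls lost without mut-FTO replicate 1 or 3 and, for CXCL5, without Vector replicate 2 (adjusted p 0.0542 to 0.0672). CXCL8 stood at 480, 517 and 522 CPM in FTO, 424, 217 and 357 CPM in mut-FTO and 222, 246 and 252 CPM in Vector. It rose in FTO against Vector (edgeR adjusted p = 0.0404), opposite in direction to IL1B in the same libraries, and that call was lost without 6 of the 9 libraries, namely all FTO libraries, mut-FTO replicate 3 and Vector replicates 1 and 2 (0.0871 to 0.228).

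Over the 9 libraries, the genes most like IL1B in log2 CPM were CTSL (Pearson r = 0.997), LCP1 (0.989), TPM1 (0.984) and FTSJ1 (0.983), out of 8149 genes with a mean of at least 10 CPM. CTSL, which encodes the lysosomal protease cathepsin L, had 147, 164 and 173 CPM in FTO, 71.3, 69.6 and 66.6 CPM in mut-FTO and 240, 239 and 269 CPM in Vector. IL1A ranked 21 for likeness to IL1B (r = 0.971), and IL1RN ranked 661 (0.698). IL1R2 ran against IL1B, with r = −0.90. The genes most like IL1RN were MXRA5 (0.975), AP2B1 (0.967), POGK (0.967) and SULF2 (0.967). These values describe 9 libraries in 3 groups, which share the group differences, and are given without a test.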

How the data were processed

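Poly(A) RNA of 9 HaCaT libraries was sequenced. The deposited table holds raw counts per gene, and the submitters' processing notes list HISAT2 and StringTie among the authors' tools. No version, counting program, strand setting or annotation is given there. They list the mouse build mm10, although the symbols are human, so coordinates come only from RefSeq. Columns were matched to groups by letter code and number, and 0 were left unused. Of its 21170 features, 1441 are assembled loci without a gene symbol.

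The test was edgeR 4.0.16 (R 4.3.3): filterByExpr (minimum count 10, minimum total 15), TMM factors, robust quasi-likelihood fits of all 9 libraries with a term per group, and Benjamini-Hochberg adjustment over 13713 genes. The pipeline was run on simulated counts with the spread fitted to these data. Changes were placed in the FTO group alone, so recovery of changes in mut-FTO was not simulated. No call rests on the outcome, which is not given here. The simulation shifted no single library, so it does not cover libraries that stand apart, such as Vector replicate 3. SEs derive from the fold change and F statistic. Log2 CPM used a prior count of 2 and log2 ratios 0.5 added counts. A group without counts was set at 3 counts in total over library totals without TMM factors, which covers counting error only. DESeq2 1.42.0 and limma 3.58.1 (voom) were alternatives. Replicate numbers were not used as a block. No 2 libraries of a group agreed within sampling noise.

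Members and lists were chosen with earlier results of these data known. All members are named, and of each pathway list at most the 4 genes of lowest p among those called, or the gene of lowest p where none was. Of the list symbols, 1 (GSDME) matched by an older symbol, and 9 of 10 members had a RefSeq promoter. Antisense or overlapping transcripts cannot be told apart, as strand use is not stated.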

Additional observations from a re-analysis of the deposited data

How the results depend on the processing

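The number of members called in FTO against Vector was 1. It was 2 with RLE size factors, with library size alone, without assembled loci and mitochondrially encoded genes, with no filter, and without Vector replicate 3 and mut-FTO replicate 2 together. It was 3 with DESeq2, 1 with limma-voom, and 0 by edgeR with only the 6 libraries compared, where 4 had an unadjusted p below 0.05. Leaving out 1 library gave 0 to 3. Leaving out 1 library gave 4 to 6 for mut-FTO against Vector (5) and 2 to 4 for FTO against mut-FTO (3). Pathway genes called in FTO against Vector (3) became 6 with DESeq2, 13 without both of those libraries, and 0 to 10 with 1 library left out, where the share of all genes called went with them (0.744%, then 1.52%, 7.55% and 0.193% to 3.41%). In mut-FTO against Vector (17) they became 9 with 6 libraries, 29 without both, and 8 to 26 with 1 left out. The share of all genes called there was 7.78%, then 4.63%, 17.3% and 4.36% to 15%. In FTO against mut-FTO (4) they became 12 without both and 2 to 8 with 1 left out, where the share of all genes was 2.33%, then 8.6% and 0.508% to 10.2%. With the replicate number as a block, pathway calls were 1 for FTO against Vector and 2 between FTO and mut-FTO, where 0.489% and 1.62% of all genes were called. All members kept their calls in that fit. Correlations of same-numbered libraries, in deviations from their group means, were −0.13 to 0.11. They show no pairing by number but cannot exclude it, as differently numbered libraries were not compared.

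Directions turned for uncalled members alone. The log2 fold change of IL1RN between FTO and mut-FTO was −0.0027 with RLE, −0.00056 without assembled loci and mitochondrially encoded genes and −0.0019 with DESeq2. It was −0.026 and −0.015 without FTO replicates 1 and 3, −0.085 without mut-FTO replicate 1 and −0.011 without Vector replicate 3, and at most 0.064 with 1 library left out. In FTO against Vector, IL18 was −0.053 without Vector replicate 2 (up to 0.33 with 1 library left out), and IL1RAP was 0.20 without Vector replicate 3 (down to −0.30) and 0.21 without both libraries. IL1R1 in mut-FTO against Vector was 0.17 (down to −0.32) and 0.12 in those fits. The causes were not tested. IL33 was left out by the filter in the 6-library fit of FTO against mut-FTO. Low counts of IL33 and IL36RN limit their precision.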

Other observations

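Family genes that were too scarce to test had few counts in total. IL36A, an agonist of the interleukin 36 receptor, had 5 counts in FTO and 0 in mut-FTO and Vector. IL37, an anti-inflammatory family member, had 9 counts in FTO, 0 in mut-FTO and 18 in Vector. IL1F10 had 27 counts in FTO, 5 in mut-FTO and 19 in Vector. IL18RAP, the accessory chain of the interleukin 18 receptor, had 0 counts in all 9 libraries.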
